A study of Mus musculus with 6 samples.

Results

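The genes described here are 10 genes of lipoprotein metabolism, measured by RNA-seq in the livers of mice with and without Zpbp2. They are 7 apolipoprotein genes (Apoa1, Apoa2, Apoa4, Apob, Apoc1, Apoe and Apom), the lipid transfer protein gene Mttp, the cholesterol-esterifying enzyme gene Lcat and the cholesterol exporter gene Abca1. They were chosen by name, and all 10 were found among the 37991 gene IDs of the count table and passed its filter on low counts, which left 14686 genes. The samples were livers of male mice aged 12 weeks, 3 C57BL/6J wild-type (WT) animals and 3 B6.Zpbp2-/- animals (Zpbp2 KO), which the labels place on the strain C57BL/6J. Each liver gave 1 library, so the spread within a group is one between animals, and no treatment is named for either group. The labels do not say which part of the gene the deletion removes or whether the animals were littermates. The series title names altered lipid metabolism in these mice, and the comparison asks whether the mRNAs of the lipoprotein machinery differ with the genotype.

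The liver exports fat in very low density lipoproteins (VLDL). In the endoplasmic reticulum of the hepatocyte, microsomal triglyceride transfer protein, encoded by Mttp, loads lipid onto each newly made apolipoprotein B molecule, and the particle then takes up smaller, exchangeable apolipoproteins such as APOE and the C apolipoproteins. High density lipoproteins (HDL) start from lipid-poor APOA1, to which the transporter ABCA1 passes cholesterol and phospholipid, and LCAT then esterifies that cholesterol with APOA1 as its cofactor.

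Total counts ran from 37904891 to 52955687 per library, with 5370 counts (Apoa4 in WT replicate 3) to 985068 counts (Apoe in Zpbp2 KO replicate 2) behind each value below. Zpbp2 itself held 4, 13 and 7 counts in the WT libraries and 0 in each library labelled Zpbp2 KO. That allows up to 3 counts there, or 0.0584 to 0.0627 per 1000000 counts of the library, without the scaling of the CPM below. Hepatocyte markers such as Alb and Ttr, 16 genes, summed to 117695 to 124772 CPM (counts per 1000000 counts, scaled by the TMM factors of edgeR) in WT and 127050 to 131882 CPM in Zpbp2 KO livers. Of 11 markers of gut epithelium, the other tissue that makes Apoa1, Apoa4 and Apob, 8 were too low to test and together reached at most 1.15 CPM in a library, with Cdx1 and Reg3g at 0 counts in all 6. Kupffer cell and macrophage markers, of interest because macrophages also transcribe Apoe and Abca1, summed over 13 genes to 366.6 to 529.1 CPM in WT and 205.6 to 657.3 CPM in knockout livers, with 12 above 0 and a median log2 fold change of 0.11. In whole liver, fewer cells of a type and less RNA per cell cannot be told apart.

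Promoter windows from RefSeq (build GRCm38.p6, 250 bases before to 50 after a transcription start) were found for 9 of the 10 genes, in 12 windows. The 4 below are shown because Apoa1 and Apoa2, the HDL proteins, were among the most abundant of the 10 mRNAs, and Apob and Abca1, the 2 longest transcripts, had levels that ranged most over the livers. Lower case is the sequence, 5′ to 3′ on the gene's strand, and capitals mark the motifs searched on both strands, which were chosen after the windows had been seen. The motifs are TATAAA (the core of a TATA box), CAAAGNNCA (HNF4-type core), TGTTTNC (forkhead core), CACGTG (E-box), GGGCGG (GC box core) and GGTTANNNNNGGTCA (a direct repeat of the type bound by the oxysterol receptors LXR). Adjoining matches can share a run of capitals.
Apoa1, chr9:46228380-46228679, plus strand: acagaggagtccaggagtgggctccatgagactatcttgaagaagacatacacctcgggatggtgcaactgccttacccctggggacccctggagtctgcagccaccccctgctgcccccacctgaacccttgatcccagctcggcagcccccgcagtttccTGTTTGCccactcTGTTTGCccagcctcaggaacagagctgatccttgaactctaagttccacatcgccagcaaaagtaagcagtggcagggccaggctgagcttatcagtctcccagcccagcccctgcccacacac
Apoa2, chr1:171224804-171225103, plus strand: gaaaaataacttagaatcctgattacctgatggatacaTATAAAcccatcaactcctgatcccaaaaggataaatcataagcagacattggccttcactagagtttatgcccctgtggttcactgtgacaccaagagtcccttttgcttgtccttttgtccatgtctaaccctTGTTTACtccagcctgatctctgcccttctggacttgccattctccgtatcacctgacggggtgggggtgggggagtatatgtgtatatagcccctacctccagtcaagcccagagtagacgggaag
Apob, chr12:7977427-7977726, plus strand: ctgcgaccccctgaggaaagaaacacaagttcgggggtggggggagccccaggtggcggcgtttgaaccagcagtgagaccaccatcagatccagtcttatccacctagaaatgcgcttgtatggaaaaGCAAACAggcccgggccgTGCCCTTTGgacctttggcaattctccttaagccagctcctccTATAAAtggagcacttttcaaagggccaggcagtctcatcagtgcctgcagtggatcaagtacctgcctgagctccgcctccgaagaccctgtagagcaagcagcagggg
Abca1, chr4:53159846-53160145, minus strand: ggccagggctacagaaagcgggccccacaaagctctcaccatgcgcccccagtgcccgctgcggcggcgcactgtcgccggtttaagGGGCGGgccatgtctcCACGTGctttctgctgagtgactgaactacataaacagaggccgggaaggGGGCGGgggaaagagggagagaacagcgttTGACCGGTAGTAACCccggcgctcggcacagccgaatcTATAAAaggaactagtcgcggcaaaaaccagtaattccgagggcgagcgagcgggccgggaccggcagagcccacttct

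The 3 windows of apolipoproteins shown each held the forkhead core, which stood in 20.5% of all 32851 windows of that length. Of the 12 windows found for the genes described here, 5 held this core, with matches in Apoa1, Apoa2, Apob, Apoe and Apom. In Apoa1 it occurred at both -88 and -75 from the start, in Apoa2 at -77 and in Apob at -121. The HNF4-type core, in 6.36% of all windows, was present in Apob at -103 and in the Apoa4 window at -182. The Abca1 window had a TATA box core at -29, an E-box at -147, GC box cores at -163 and -97, and the LXR-type repeat at -67, which was found in 16 (0.0487%) of all windows. TATAAA itself was present in 13.6% of all windows. Since the motifs were chosen with the windows in view, these shares do not measure how unusual a match is. A match of letters is a description and no evidence of binding in these livers.

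Apoe was the most abundant of the 10 mRNAs on any scale. Levels are compared between genes per length here, as counts per kilobase of transcript scaled to 1 total in all libraries (TPM), with the longest coding transcript of GENCODE M21 as the length. Apoe, the ligand that clears remnant particles through LDL receptor family members, stood at 25623 ± 886 TPM in WT and 26336 ± 1066 TPM in Zpbp2 KO livers (SD, n = 3) and was the second gene of the whole table in each of the 6 livers. Apoa2 (17651 ± 1030 TPM in WT), a structural protein of HDL, and Apoa1 (16027 ± 526 TPM in WT), its principal protein, ranked between 4 and 7 in every liver, and Apoa2 was above Apoa1 in all 6. Apoc1, a small exchangeable apolipoprotein that inhibits lipoprotein lipase, followed with 6614 ± 416 TPM in WT, ranking 14 to 18.

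Below these 4 came a gap. Apob stood at 984 ± 185 TPM in WT livers and ranked 101 to 204, and Lcat at 496 ± 25.0 TPM ranked 234 to 287. Apom, the carrier of sphingosine 1-phosphate on HDL, had 369 ± 10.3 TPM, Mttp 195 ± 7.23 TPM and Apoa4, an apolipoprotein of the intestine and of the fasted or fat-loaded liver, 178 ± 40.2 TPM. The last 2 did not differ beyond their spread between WT livers. Abca1 was the lowest with 46.1 ± 9.71 TPM and ranked 1903 to 2949. The 10 genes together took 4.02% to 4.10% of the counts of a WT library and 4.33% and 4.57% in Zpbp2 KO replicates 1 and 2, while Zpbp2 KO replicate 3 was just below the lowest WT library. Apoe alone took 1.70% to 2.05%.

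None of the 10 genes was called between the genotypes. The quasi-likelihood test of edgeR, adjusted over 14686 genes by Benjamini and Hochberg, passed 0 members at an adjusted p below 0.05. Over all tested genes it passed 2 (0.0136%), both lower (0.0136%), and none higher (0%). DESeq2 called 0 members as well, against 0.517% of all genes, and limma-voom 0. At an unadjusted p below 0.05 there was 1 member, Mttp, which was lower, against 5.79% of all tested genes (2.93% lower, 2.86% higher). The groups did not overlap for 1 of the 10, again Mttp, against 11.6% of all (6.01% lower, 5.56% higher). The log2 fold changes of Zpbp2 KO over WT ran from -0.33 to 0.31, with 7 above 0 (52.9% of all tested genes were) and a median of 0.09, where the median over all tested genes was 0.01. The 95% intervals of the differences lay between -0.72 and 0.64, so that for no member did the interval reach a change of 2-fold. Without Zpbp2 KO replicate 3, 5 members (Apoa1, Apoa2, Apob, Apoc1 and Mttp) had an unadjusted p below 0.05 and the smallest adjusted p was 0.278, where the share of all tested genes was itself 13.4%. Without WT replicate 1 there were 2, Apoa4 and Apob, against 6.27% of all, and Mttp was not one of them (p of 0.0751 by edgeR). Without any 1 of the other 4 libraries there were 0.

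**Figure D1:**
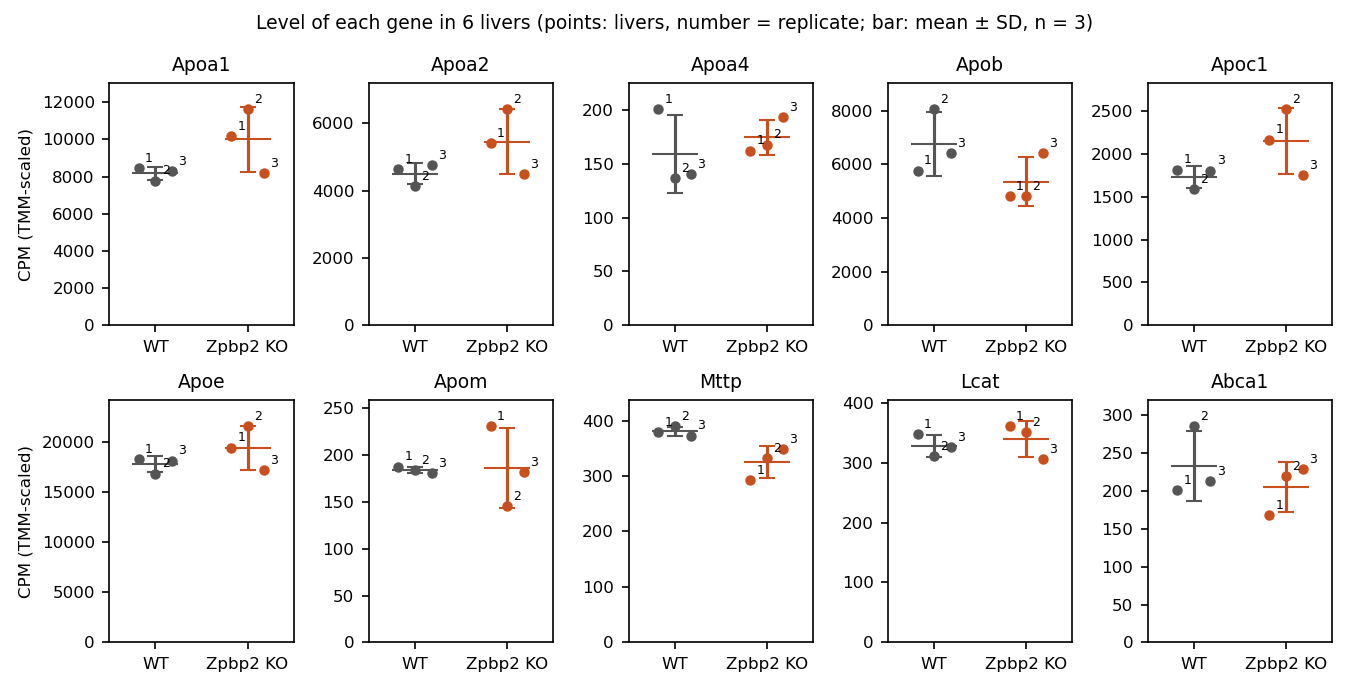
CPM of the 10 genes (vertical axes, each from 0, TMM-scaled) in 3 WT and 3 Zpbp2 KO livers, with points for livers numbered by replicate and bars for the mean ± SD. The groups overlap for every gene except Mttp, whose 3 Zpbp2 KO livers lie between 292.7 and 349.0 CPM, under the WT livers at 373.0 to 389.8 CPM.

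**Figure D2:**
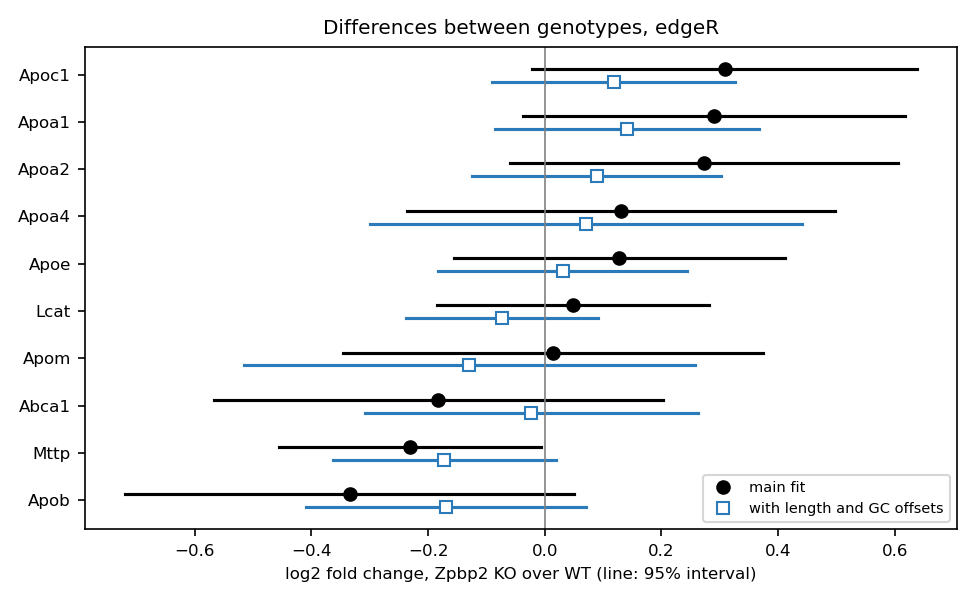
Log2 fold change of Zpbp2 KO over WT (horizontal axis) with its 95% interval, by edgeR's main fit (black) and by a fit with offsets for transcript length and GC content (blue squares). In the main fit the intervals of 9 genes include 0 and that of Mttp ends at -0.01, and with the offsets all 10 include 0.

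Among the genes of VLDL assembly, Mttp and Apob both stood lower in Zpbp2 KO livers, by less than the test could call. Mttp held 379.5, 389.8 and 373.0 CPM in the 3 WT livers, in replicate order, and 292.7, 332.0 and 349.0 CPM in the 3 knockout livers. Every Zpbp2 KO liver was under every WT liver, and Zpbp2 KO replicate 1 was the lowest. The log2 fold change was -0.23 ± 0.0981 (SE, 95% interval -0.46 to -0.01), with an unadjusted p of 0.0457 and an adjusted p of 0.798 by edgeR. With any 1 library but Zpbp2 KO replicate 3 left out, its unadjusted p by edgeR was above 0.05, with a log2 fold change of -0.16 to -0.26. The transfer RNA methyltransferase gene Trmt10a overlaps Mttp on the opposite strand in GENCODE M21, with 1424 counts over all 6 libraries.

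Apob, which encodes the single large protein that frames each VLDL particle, held 5765, 8062 and 6406 CPM in the 3 WT livers, in replicate order, and 4821, 4823 and 6402 CPM in the 3 knockout livers. WT replicate 2 stood above the rest, Zpbp2 KO replicates 1 and 2 below all others, and Zpbp2 KO replicate 3 lay among the WT livers. The log2 fold change was -0.33 ± 0.168 (95% interval -0.72 to 0.05), with an adjusted p of 0.798 by edgeR. Without WT replicate 2 it was -0.19 and without Zpbp2 KO replicate 3 it was -0.48.

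The abundant exchangeable apolipoproteins stood higher in 2 of the 3 Zpbp2 KO livers. Apoa1 held 8449, 7789 and 8292 CPM in the 3 WT livers, in replicate order, and 10170, 11643 and 8184 CPM in the 3 knockout livers. Zpbp2 KO replicates 1 and 2 were above every WT liver, and Zpbp2 KO replicate 3 was within the WT range. The log2 fold change was 0.29 ± 0.143 (95% interval -0.04 to 0.62, adjusted p of 0.798 by edgeR).

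Apoa2 held 4637, 4140 and 4748 CPM in WT and 5416, 6429 and 4496 CPM in knockout livers, in replicate order. Apoc1 held 1815, 1585 and 1804 CPM in WT and 2167, 2525 and 1755 CPM in knockout livers. Their log2 fold changes were 0.27 ± 0.145 and 0.31 ± 0.144, the second with an interval of -0.02 to 0.64, and both had an adjusted p of 0.798 by edgeR. For Apoa1 and Apoc1 the livers came in the same order, with Zpbp2 KO replicate 2 highest, Zpbp2 KO replicate 1 next, then WT replicates 1 and 3, Zpbp2 KO replicate 3 and WT replicate 2. Apoe had that order too, and Apoa2 had it but for WT replicates 1 and 3, which changed places. The groups overlapped for each of these 4 genes. Without Zpbp2 KO replicate 2 the log2 fold change was 0.17 for Apoa1, 0.14 for Apoa2 and 0.18 for Apoc1.

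Apoe held 18340, 16860 and 18150 CPM in the 3 WT livers, in replicate order, and 19465, 21598 and 17236 CPM in the 3 knockout livers, a smaller difference of 0.13 ± 0.124 (95% interval -0.16 to 0.41, adjusted p of 0.848 by edgeR) that was 0.04 without Zpbp2 KO replicate 2. The ratio of Apoe to Apoc1, which lie next to each other on chromosome 7, was 3.80 to 4.02 per length in WT and 3.23 to 3.71 in Zpbp2 KO livers, given as a description since the pair was picked after its values were seen. The ratio of Apoa1 to Apoa2 per length was 0.874 to 0.942 in WT and 0.906 to 0.940 in Zpbp2 KO livers. That of Apoa1 to Apob, by contrast, was 19.7, 13.0 and 17.4 in the WT livers, in replicate order, and 28.4, 32.5 and 17.2 in the knockout livers. Apoa1 (1035 bases) and Apob (13934 bases) lie at opposite ends of the trend with transcript length given below. With offsets for length and GC content their log2 fold changes were 0.14 and -0.17, against 0.29 and -0.33. Apoe (1408 bases) and Apoc1 (532 bases) differ in length too, and the ratios were not corrected for that trend.

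Genes that act on HDL once APOA1 is secreted showed small differences. Lcat held 347.1, 311.3 and 325.9 CPM in WT and 360.8, 351.3 and 305.9 CPM in knockout livers, in replicate order. Its livers were the most alike of the 10 genes, with a highest value 1.18 times the lowest, and its log2 fold change was 0.05 ± 0.102 (95% interval -0.18 to 0.28). Abca1 held 200.5, 285.3 and 212.6 CPM in WT and 167.5, 219.3 and 228.8 CPM in knockout livers. WT replicate 2 was the highest and Zpbp2 KO replicate 1 the lowest, 1.70 times apart, with the other 4 between them in mixed order. Its log2 fold change was -0.18 ± 0.168 (95% interval -0.57 to 0.20), and without WT replicate 2 it was -0.01. The adjusted p was 0.931 for Lcat and 0.842 for Abca1 by edgeR.

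For Apom and Apoa4 the livers came in other orders. Apom held 187.6, 183.9 and 180.8 CPM in WT livers, a coefficient of variation of 1.85%, and 230.9, 145.3 and 181.8 CPM in Zpbp2 KO livers, one of 23.1%. Zpbp2 KO replicate 1 was the highest of the 6 livers and Zpbp2 KO replicate 2 the lowest, so the mean hardly differed (0.01 ± 0.157, 95% interval -0.35 to 0.37, adjusted p of 0.991 by edgeR). The difference in spread between 3 livers and 3 was not tested. Apoa4 held 201.1, 136.6 and 140.7 CPM in WT and 162.3, 168.0 and 193.6 CPM in knockout livers. WT replicate 1 was its highest liver and the other WT livers its lowest, with a log2 fold change of 0.13 ± 0.160 (95% interval -0.24 to 0.50, adjusted p of 0.873 by edgeR) that became 0.33 without WT replicate 1 and 0.03 without WT replicate 2.

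Short transcripts among the 10 mostly stood above 0 and the longest below, and the differences of all genes ran with transcript length in that direction. Apoa2 (518 bases), Apoc1 (532) and Apoa1 (1035) were above 0, and Mttp (3963), Abca1 (10262) and Apob (13934) below. Over all tested genes with a length, the shortest 10% (up to 1064 bases) had a median log2 fold change of 0.20 and the longest 10% (from 6491 bases) one of -0.14, and the medians of the 8 bins of equal size between them went down in order of length. Apom, of 1013 bases, was the short transcript that departed from this, at 0.01. With offsets for length and GC content, which take out the trend of each library with these, the log2 fold change was 0.12 for Apoc1, 0.14 for Apoa1, 0.09 for Apoa2, -0.17 for Apob and -0.02 for Abca1, and the median over the 10 genes went from 0.09 to 0.00. Mttp kept more of its difference, at -0.17 (95% interval -0.36 to 0.02, unadjusted p of 0.0710). Apom and Lcat then stood at -0.13 and -0.07.

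**Figure D3:**
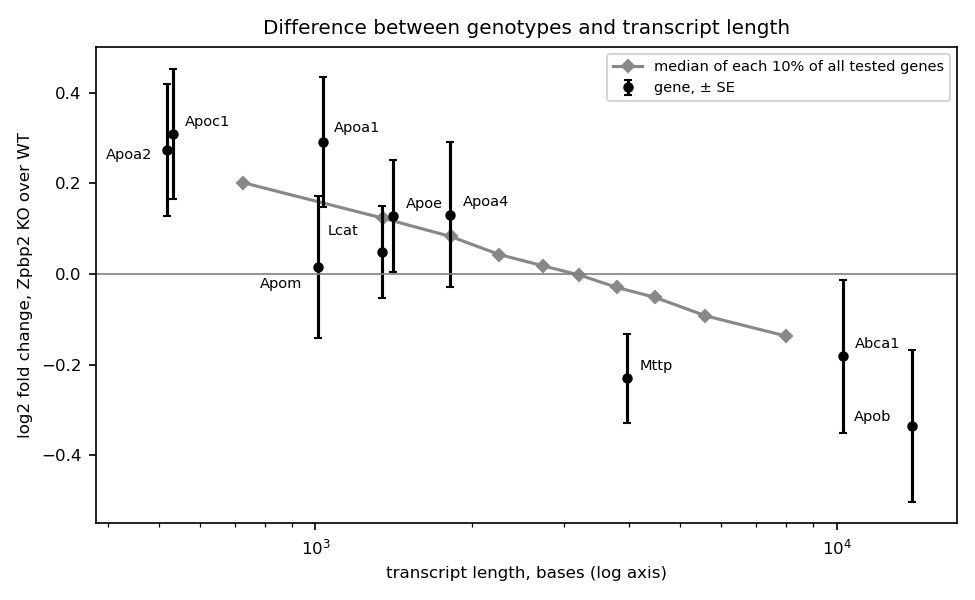
Log2 fold change of Zpbp2 KO over WT ± SE (vertical axis) against transcript length on a log axis for the 10 genes (black), with the median of each of 10 equal bins of all tested genes by length (grey diamonds). The medians go from 0.20 in the bin of shortest genes to -0.14 in that of the longest, and Apoc1, Apoa2 and Apoa1 lie above them while Mttp, Abca1 and Apob lie below.

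Liver by liver, the 10 genes followed this trend in part. The shortest 10% of genes deviated from its 6-liver mean by a median of 0.18 and 0.22 on the log2 scale in Zpbp2 KO replicates 1 and 2, by -0.11 in Zpbp2 KO replicate 3 and by -0.16 in WT replicate 2. Apoa1 deviated by 0.18, 0.37, -0.14 and -0.21 in those 4 libraries. The longest 10% had 0.18 in WT replicate 2 and -0.17 and -0.14 in Zpbp2 KO replicates 1 and 2, where Apob had 0.44, -0.30 and -0.30. In these libraries Abca1 had 0.40, -0.37 and 0.02, the last on the other side of 0 from its bin. In WT replicate 1 the longest 10% had 0.01, where Apob had -0.05 and Abca1 -0.11. What makes the libraries differ by transcript length was not tested.

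**Figure D4:**
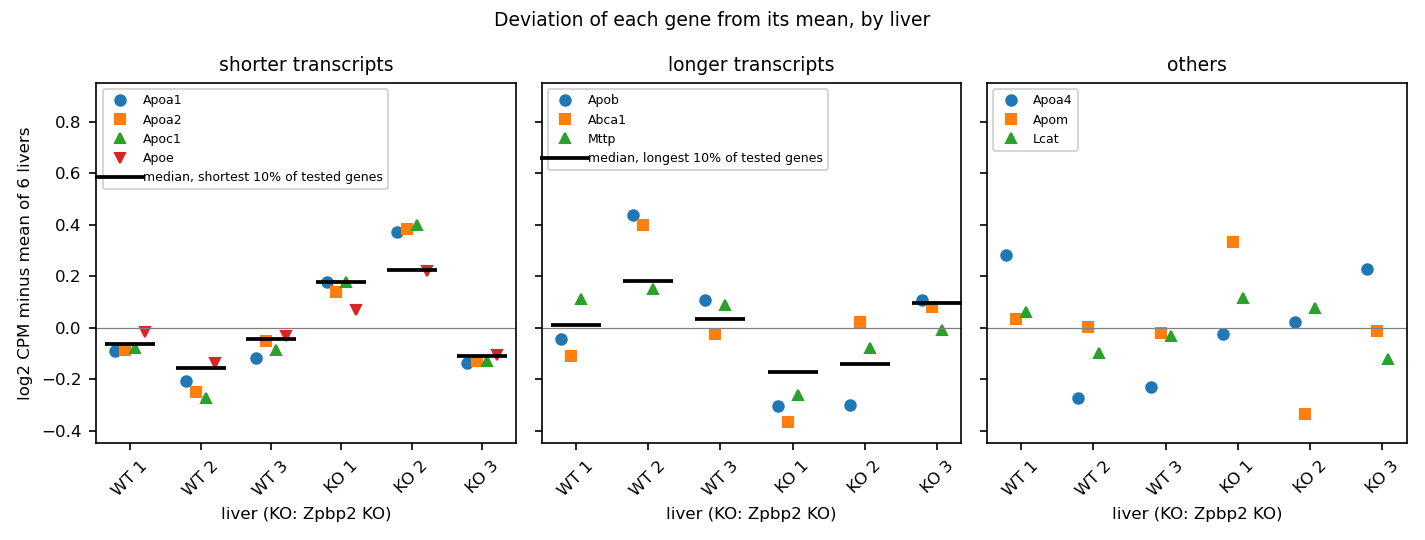
Deviation of each gene's log2 CPM from its mean over the 6 livers (vertical axis) by liver, with black bars for the median of the shortest (left) or longest (middle) 10% of all tested genes. Apoa1, Apoa2, Apoc1 and Apoe lie on the side of the shortest 10% in every liver. None of Apob, Abca1 and Mttp lies on the side of the longest 10% in every liver, and Apom and Apoa4 (right) do not share a pattern.

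Abca1 and Apob had the widest range over the livers, 0.77 and 0.74 on the log2 CPM scale. The genes whose profiles were most like theirs, by the root mean square difference of centred log2 CPM over 6 livers among 8376 genes, were themselves long. For Abca1 these were Huwe1 (14579 bases, difference 0.0263), Cep350 (13307 bases, 0.0449) and Nipbl (0.0453). For Apob they were Dennd4c (0.0467), Pcnt (0.0475) and Rev3l (0.0508).

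Several apolipoprotein genes lie in clusters, and their neighbours were not called either. On chromosome 9, Apoa1 is followed by Apoc3, Apoa4 and Apoa5. Apoc3, which slows the clearance of triglyceride-rich particles, held 1210, 1244 and 1406 CPM in WT and 1592, 1889 and 1236 CPM in knockout livers (0.29 ± 0.157), with the 2 highest livers the same as for Apoa1 and a value of 0.14 without Zpbp2 KO replicate 2. Apoa5, which favours that clearance, had 1367 ± 281 CPM in WT and 1510 ± 10.5 CPM in knockout livers (0.14 ± 0.145). On chromosome 7, beside Apoe and Apoc1, Apoc4 had a log2 fold change of 0.36 ± 0.163 and Apoc2, the activator of lipoprotein lipase, one of 0.22 ± 0.110. The adjusted p of these 4 was 0.798 to 0.850 by edgeR. With offsets for length and GC content they stood at 0.11 for Apoc3, 0.11 for Apoa5, 0.18 for Apoc4 and 0.05 for Apoc2.

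Of the other apolipoproteins, 11 of 12 listed were tested and 0 were called by edgeR. The median was 0.29, and 0.13 with the length and GC offsets. At an unadjusted p below 0.05 there were 3, all higher, against 2.86% of all tested genes higher. Those 3 were Saa1, Saa2 and Apoh. Apoh, a phospholipid-binding plasma protein also known as beta2-glycoprotein I, held 1946, 1727 and 1898 CPM in WT and 2655, 2930 and 2256 CPM in knockout livers. All 3 Zpbp2 KO livers were above all WT livers, with a log2 fold change of 0.49 ± 0.122, an adjusted p of 0.602 by edgeR and one of 0.0808 by DESeq2, and a value of 0.38 with the length and GC offsets. The acute phase apolipoproteins Saa1 (1.34 ± 0.208) and Saa2 (1.26 ± 0.277) were called by DESeq2 but not by edgeR (adjusted p of 0.287 and 0.475). They are near-identical copies, so reads that match both may have been split or left uncounted.

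Among 20 further genes of VLDL assembly and secretion, 0 were called and the median was 0.06. At an unadjusted p below 0.05 there were 2, both lower, against 2.93% of all tested genes lower. Sort1, the sorting receptor sortilin that binds apolipoprotein B, had 45.3 ± 3.43 CPM in WT and 33.5 ± 5.99 CPM in knockout livers (-0.43 ± 0.143, adjusted p of 0.798 by edgeR), and Sec23a, a coat protein of vesicles leaving the endoplasmic reticulum, 92.3 ± 3.05 and 77.3 ± 9.53 CPM (-0.26 ± 0.110, the same adjusted p). With the length and GC offsets the log2 fold changes were -0.32 for Sort1 and -0.19 for Sec23a. The groups did not overlap for these 2 of 20, a share near the 11.6% of all tested genes. In HDL formation and remodelling, 0 of 11 were called by edgeR, with a median of -0.05. At an unadjusted p below 0.05 there was 1, the endothelial lipase gene Lipg (-1.30 ± 0.398), which was lower, against the same 2.93%. DESeq2 called it, and called 0.517% of all tested genes. For Lipg, WT replicate 1 held 31.9 CPM against 10.05 and 14.57 CPM in the other WT livers, and without it the log2 fold change was -0.69 by edgeR.

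Receptors and clearance genes (15 tested, median -0.06) had 0 members called and 0 at an unadjusted p below 0.05, against 0.0136% and 5.79% of all tested genes. Angptl4, an inhibitor of lipoprotein lipase, stood at -0.51 ± 0.270. Transcriptional regulators of the liver (22 tested, median 0.05) likewise had 0 and 0, with Ppara, the fatty acid receptor, at -0.51 ± 0.261 and Foxa2, a forkhead factor, at 0.39 ± 0.214. LXR targets (11 tested, Abca1 among them) had a median of -0.06. They held 1 member at an unadjusted p below 0.05, which was higher, against 2.86% of all tested genes higher. It was the bile acid enzyme gene Cyp7a1 (0.97 ± 0.359, and 0.46 without Zpbp2 KO replicate 2). Targets of CREB3L3, a liver factor that drives Apoa4, Apoa5 and Apoc2 in fasting (7 tested), had a median of -0.06 and 0 such members, with Apoc2 and the elongase gene Elovl2 (-0.19 ± 0.139) at the smallest p-values. Each gene given here with its own log2 fold change, and Apoc2, had an adjusted p of 0.798 to 0.812 by edgeR.

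**Figure D5:**
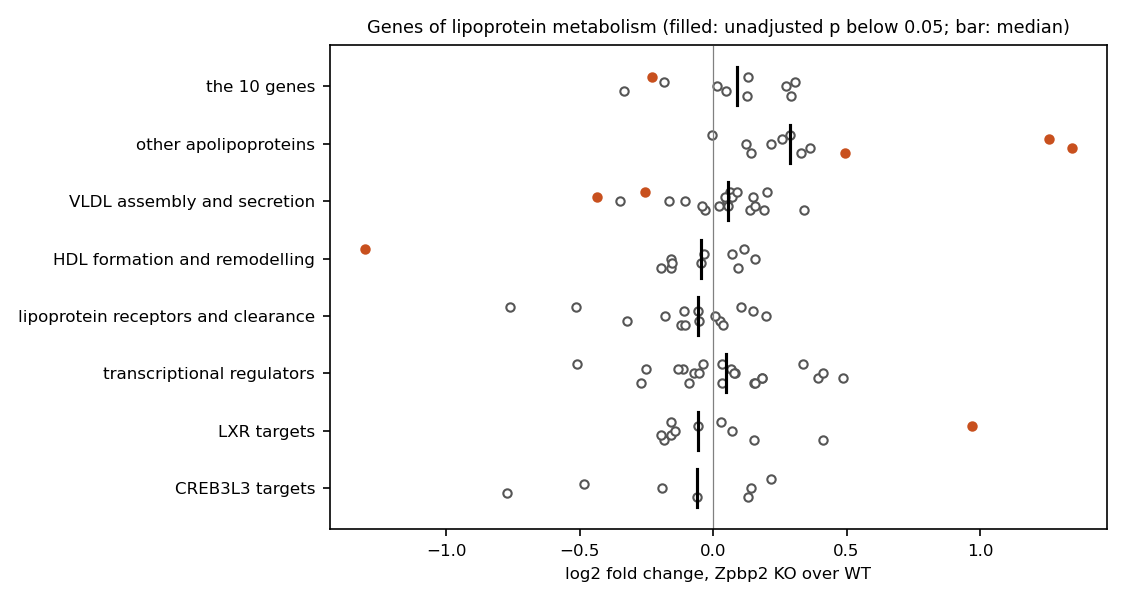
Log2 fold change of Zpbp2 KO over WT (horizontal axis) for each tested gene of the 10 and of 7 lists of related genes, with filled points for an unadjusted p below 0.05 and black bars for medians. The medians lie between -0.06 and 0.29, and the farthest points are Lipg at -1.30, Saa2 at 1.26 and Saa1 at 1.34.

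No cell type marker was called by edgeR. Endothelial (10 tested, median -0.01, with Lyve1 at 0.18 ± 0.343 and Fcgr2b at -0.15 ± 0.309) and stellate cell markers (10, median 0.02, with Hgf at -0.60 ± 0.292 and Col1a1 at 0.37 ± 0.188) held 0 genes at an unadjusted p below 0.05, against 5.79% of all tested genes. Kupffer cell markers held 0 as well, with Cd5l at 0.28 ± 0.410 and C1qb at 0.22 ± 0.364, and gut markers 0 of 3, with Anpep at -0.17 ± 0.0833 and Fabp2 at 0.09 ± 0.238, both also transcribed in liver. Zpbp2 KO replicate 2 was the liver in which Apoa1, Apoa2, Apoc1 and Apoe were highest. It had the lowest summed level of endothelial markers (196.4 CPM, against 299.2 to 471.7 CPM in the other 5 livers). Its Kupffer cell markers were the lowest too (205.6 CPM, against 366.6 to 657.3 CPM). Zpbp2 KO replicate 1, next highest for the same genes, had the highest endothelial sum (471.7 CPM). Its Kupffer cell markers summed to 613.4 CPM. Hepatocyte markers summed to 127848, 131882 and 127050 CPM in the knockout livers, in replicate order, against 117695 to 124772 CPM in WT. Erythroid markers summed to 310.4, 360.7 and 171.7 CPM in the knockout livers, so that both sums were highest in Zpbp2 KO replicate 2 and next in Zpbp2 KO replicate 1. Hepatocyte markers (16, median 0.07) held 1 at an unadjusted p below 0.05, against 2.93% of all tested genes lower. It was the tyrosine aminotransferase gene Tat (-0.43 ± 0.148). Lymphocyte markers had a median of 0.40 over 13 genes but summed to at most 14.4 CPM in a library, with Pax5 (0.86 ± 0.342) at the smallest p. Erythroid markers had a median of 0.89 over 7 genes, and 0.68 with the length and GC offsets. They summed to 155.1 to 228.8 CPM in WT and 171.7 to 360.7 CPM in knockout livers. Hbb-bs (1.29 ± 0.545) and Hba-a2 (1.29 ± 0.555) were higher at an unadjusted p below 0.05, against 2.86% of all tested genes higher. Hbb-bs held 14.4, 43.6 and 31.5 CPM in WT and 97.5, 97.8 and 23.7 CPM in knockout livers, in replicate order. For both genes Zpbp2 KO replicate 3 was within the WT range. The part of these cell types in the values of the 10 genes was not tested.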

How the data were processed

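RNA from 6 mouse livers was sequenced as poly(A)-selected, directional libraries. The table deposited by the authors holds raw counts for each Ensembl gene ID in each library. STAR, Picard and HTSeq and the build mm9 are named per the submitters' processing notes; versions, annotation and strand setting are not stated there. Symbols came from GENCODE M21 and RefSeq tables on Ensembl IDs (32919 of 37991 matched).

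Genes were kept by filterByExpr (minimum count 10), scaled by TMM and tested with edgeR 4.0.16 (R 4.3.3) by the quasi-likelihood F-test, two-sided, without covariates, with Benjamini-Hochberg adjustment over 14686 genes and a threshold of 0.05. SEs and intervals are those implied by the test. Counting limits cover counting error only, because PCR copies were not told apart. Alternatives were DESeq2 1.42.0, limma-voom (limma 3.58.1), other scalings and filters, a robust fit, the replicate number as a block, each library left out, and offsets for length and GC content, which covered 97.0% of tested genes. Log2 CPM profiles used a prior count of 2.

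The 10 genes, the lists and the tests were chosen with earlier results of these data known. Text names all 10, up to 4 genes per list at an unadjusted p below 0.05 or, with none, the 2 with the smallest p, and the 3 genes most like each of the 2 members of widest range (mean log2 CPM of at least 3); other genes were picked after their values were seen. A result that this rule names is not reported here.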

Additional observations from a re-analysis of the deposited data

How the results depend on the processing

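Under 15 alternatives, 0 of the 10 genes were called in any, and the smallest adjusted p was 0.278. Of 150 values, 143 kept their direction. Apom changed sign with limma-voom (-0.011), library totals (-0.013), the replicate block (-0.011), the length and GC offsets (-0.13) and without WT replicate 3 or Zpbp2 KO replicate 1 (-0.17 to 0.16 over the libraries left out), and Lcat with the offsets (-0.073). Members at an unadjusted p below 0.05, 1 in the main analysis, were 3 without a filter (Apoa1, Apob and Apoc1, not Mttp), 0 with the replicate block, 0 with the offsets and 0 to 5 with a library left out. The median over the members, 0.09, was 0.0038 with the offsets and 0.021 to 0.12 with a library left out. Over all genes 2 were called, 76 by DESeq2, 12 without a filter and 2 to 4 with a library left out. Of the related genes 0 were called, 3 by DESeq2 (Saa1, Saa2 and Lipg), 1 without a filter (Saa1) and 0 with any library left out. With a library left out, 6 to 21 had an unadjusted p below 0.05, against 7 in the main analysis. The 21 came without Zpbp2 KO replicate 3, where the share of all tested genes was itself 13.4%.

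Of 28 genes of the lists that were refitted, 5 changed sign with a library left out, Cd5l (-0.011 to 0.67), C1qb (-0.051 to 0.58), Lyve1 (-0.083 to 0.48), Fcgr2b (-0.42 to 0.13) and Fabp2 (-0.13 to 0.30), the last also with the offsets (-0.046). The causes were not tested. The deviations of livers that share a replicate number correlated at 0.142 and 0.197 for numbers 1 and 2 and at -0.237 for 3. These were not set against livers of different number, so the block rests on a number alone. With 3 livers a group, intervals are about 0.2 to 0.4 wide on either side of a member's difference.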
